A study of Macaca mulatta with 16 samples.

Results

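Elastic fibre genes were followed in bulk RNA sequencing of fetal rhesus macaque lung, in 16 animals of 5 groups with 1 library each. The 10 genes (ELN, FBN1, FBN2, LOX, LOXL1, FBLN5, EFEMP2, MFAP4, MFAP5 and LTBP4) were taken by symbol through their Ensembl identifiers. Each of the 10 has a row among the 22515 genes of the deposited table, and each passed the filter on low counts that left 19199 genes for testing. The 4 preterm controls (animals 092, 101, 113 and 209, delivered at 131 to 135 days of gestation) and the 2 term controls (200 and 201, at 156 and 157 days) had no intervention. The 4 LPS 16h animals (026, 029, 035 and 038, delivered at 130 or 131 days) and the 3 LPS 5d animals (239, 240 and 242, at 131 to 134 days) received 1 mg of LPS, a bacterial endotoxin, in the amniotic fluid and were delivered 16 hours or 5 days later. The 3 LPS + Beta-Ac animals (248, 249 and 255, at 131 or 132 days) received the same LPS, their dams received 0.125 mg/kg of intramuscular betamethasone-acetate, a corticosteroid, and they were delivered after 5 days. A single dose of LPS limits the groups as a model of a lasting infection, and no group with Beta-Ac alone was analysed here.

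Elastic fibres let the lung recoil, and they are laid down in vessel walls, airways and the tips of forming alveolar septa, mostly by smooth muscle cells, myofibroblasts and fibroblasts. Secreted tropoelastin is gathered on fibulins, placed on a scaffold of fibrillin microfibrils and cross-linked by lysyl oxidases into an insoluble core that turns over slowly. Steady-state RNA therefore reports on what the cells were set to make and not on the amount of fibre present.

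The values are CPM, counts relative to the size of their library, after TMM scaling, which also corrects for composition, and differences are given as log2 fold changes with their standard error (SE). A gene passed the test at an adjusted p below 0.05 in limma's moderated test, with the Benjamini-Hochberg adjustment over all 19199 genes. The tissue was checked by the lung epithelial genes NKX2-1, SFTPB, SFTPC, ABCA3 and AGER, whose summed level was at least 5763 CPM in every library. The libraries held 20.2 to 28.3 M counts outside the LPS 16h group and 30.6 to 48.1 M in it, so depth and that group cannot be told apart by design. With all libraries thinned to the smallest total, an alternative chosen after seeing the data, each elastic fibre gene stayed on its side of the threshold in the comparisons of LPS 16h with preterm controls and with LPS 5d.

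ELN, which encodes tropoelastin (ENSMMUG00000044533), was highest in the preterm controls, at 2692, 2643, 2570.4 and 3359 CPM in animals 092, 101, 113 and 209. At 16 hours after LPS it stood at 1046, 1339.6, 1099 and 999.6 CPM in animals 026, 029, 035 and 038. At 5 days it was 1861, 1830.3 and 1527 CPM with LPS alone (animals 239, 240 and 242). The LPS 5d animals lay between the preterm controls and the LPS 16h animals, with no overlap among the 3 groups. With LPS + Beta-Ac it was 1830.0, 1657 and 1726 CPM in animals 248, 249 and 255, and in the term controls 1371 and 1235 CPM in animals 200 and 201. The group means ran from preterm control (2816 ± 365 CPM, SD, n = 4) through LPS 5d (1739.5 ± 185, n = 3), LPS + Beta-Ac (1738 ± 86.9, n = 3) and term (1303 ± 96.2, n = 2) to LPS 16h (1121 ± 151, n = 4). Neighbours in that order overlapped at LPS 5d with LPS + Beta-Ac and at term with LPS 16h. ELN fell against preterm controls by 1.33 (SE 0.12, adjusted p = 4.07e-07 in limma) at 16 hours, by 0.69 (SE 0.13, adjusted p = 0.0022) at 5 days, by 0.69 (SE 0.13, adjusted p = 0.00164) with LPS + Beta-Ac and by 1.11 (SE 0.14, adjusted p = 0.00184) at term. It was also lower at 16 hours than at 5 days after LPS, by a log2 fold change of -0.64 (SE 0.13, adjusted p = 0.00106). In bulk tissue, fewer cells of a type and less RNA per cell cannot be told apart.

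**Figure D1:**
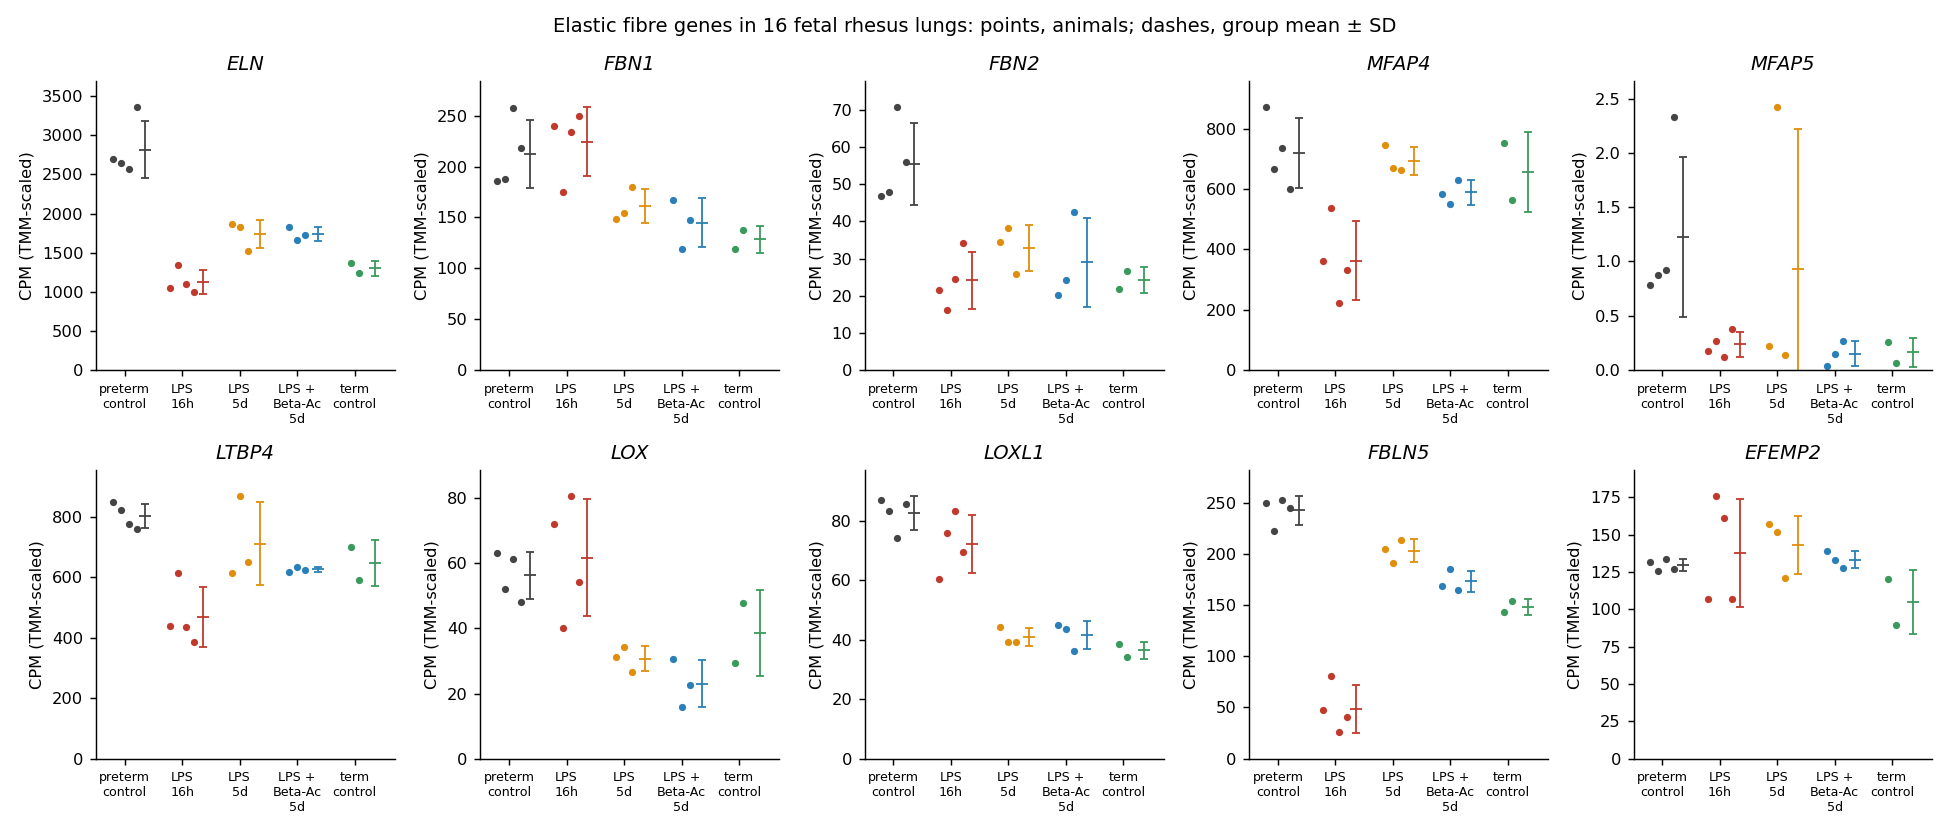
CPM of the 10 elastic fibre genes (vertical axes, each from 0) in the 5 groups (horizontal axes), with 1 point per animal and the group mean with its SD to the right of the points. ELN, FBLN5, MFAP4 and LTBP4 lie lowest in the LPS 16h animals, whereas LOX and LOXL1 overlap the preterm controls there and lie below them at 5 days. The lower SD bar of MFAP5 in LPS 5d animals runs below 0 and is not drawn in full.

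The microfibril genes divided by time. FBN1 (ENSMMUG00000004239), which encodes the main structural protein of microfibrils, was measured at 186 to 258 CPM in the preterm controls and at 175 to 249.6 CPM in the LPS 16h animals. It was 149 to 180.0 CPM at 5 days after LPS, 119 to 167 CPM with LPS + Beta-Ac and 119 and 138 CPM at term. At 16 hours the groups overlapped and FBN1 differed by 0.08 (95% confidence interval -0.23 to 0.39), whereas all animals of the other 3 groups lay below all preterm controls. FBN1 fell with LPS + Beta-Ac (-0.55, adjusted p = 0.0227 in limma) and at term (-0.72, adjusted p = 0.0356), and with LPS alone it was lower by a difference that did not pass (-0.39, adjusted p = 0.111). The call with LPS + Beta-Ac was lost without preterm control 113 (adjusted p = 0.0722) or animal 249 (adjusted p = 0.171). FBN1 at term did not pass when only the 2 compared groups were fitted (adjusted p = 0.087). The call at term was lost without 092, 101, 113, 200 or 201, at adjusted p values of 0.0508 to 0.243.

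FBN2 (ENSMMUG00000010682), a fibrillin used above all in fetal tissue, was 46.8, 47.8, 70.7 and 56.1 CPM in preterm controls 092, 101, 113 and 209. It was 21.5, 16.2, 24.4 and 34.3 CPM in LPS 16h animals 026, 029, 035 and 038, all below all controls. The 3 LPS 5d animals had 34.4, 38.1 and 25.9 CPM, the 3 LPS + Beta-Ac animals 20.1, 24.1 and 42.6 CPM, and the term controls 21.7 and 26.6 CPM. FBN2 was thus below the preterm range in every treated and term animal, and the other 4 groups overlapped one another. FBN2 fell at 16 hours (-1.23, SE 0.25, adjusted p = 0.00119 in limma), with LPS + Beta-Ac (-0.99, adjusted p = 0.0187) and at term (-1.18, adjusted p = 0.0431), and missed the threshold with LPS 5d (-0.75, adjusted p = 0.0745). The LPS + Beta-Ac call was lost without 113, 248 or 249 (adjusted p = 0.0581, 0.106 and 0.0988). LPS 5d passed without animal 255 (adjusted p = 0.0401) and when only the 2 compared groups were fitted (adjusted p = 0.0213). The term call was lost when 026, 035, 092, 101, 113, 200, 201, 209, 239, 240 or 249 was left out, and over all 16 fits without 1 animal the adjusted p was 0.0252 to 0.255.

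MFAP4 (ENSMMUG00000008538), a microfibril-associated glycoprotein that binds elastin, stood at 872, 667, 736 and 601 CPM in preterm controls 092, 101, 113 and 209. At 16 hours it was 362, 538, 221 and 332 CPM in animals 026, 029, 035 and 038, below every control. At 5 days it was 665 to 747 CPM with LPS and 552 to 632 CPM with LPS + Beta-Ac, and at term 563 and 752 CPM, each overlapping the controls. MFAP4 fell at 16 hours (-1.04, SE 0.20, adjusted p = 0.000906 in limma) and was then higher at 5 days than at 16 hours, with a log2 fold change of 16 hours against 5 days of -1.003 (SE 0.22, adjusted p = 0.00232). Against preterm controls the difference was -0.04 (95% confidence interval -0.51 to 0.43) with LPS 5d, -0.28 (-0.74 to 0.19) with LPS + Beta-Ac and -0.13 (-0.66 to 0.40) at term.

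LTBP4 (ENSMMUG00000020798), a latent TGF-beta binding protein that helps fibulin-5 to deposit elastin, was 761 to 849.7 CPM in the preterm controls and 439, 613, 437 and 385 CPM in LPS 16h animals 026, 029, 035 and 038. It was 614, 869 and 651 CPM at 5 days after LPS in animals 239, 240 and 242. Animal 240 was above all preterm controls and the other LPS 5d animals were below them. LTBP4 fell at 16 hours (-0.80, SE 0.14, adjusted p = 0.000314 in limma) and was lower at 16 hours than at 5 days (-0.61, SE 0.15, adjusted p = 0.00484). With LPS + Beta-Ac it was 619 to 635 CPM, a difference from preterm controls of -0.36 (adjusted p = 0.115), and at term 592 and 699.8 CPM (-0.32, adjusted p = 0.335). Without animal 029 the LPS + Beta-Ac value passed (adjusted p = 0.0419), as it did when only the 2 compared groups were fitted (adjusted p = 0.0159).

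MFAP5 (ENSMMUG00000010747), a small microfibril-associated protein, was scarcely measured, at 1 to 64 counts per library. The preterm controls held 18, 19, 26 and 64 counts (0.784 to 2.33 CPM), the LPS 16h animals 5, 10, 5 and 13, the LPS 5d animals 6, 63 and 3, the LPS + Beta-Ac animals 1, 4 and 7, and the term controls 7 and 2. Preterm control 209 and LPS 5d animal 240 stood apart from the rest of their groups. MFAP5 passed the test at 16 hours (adjusted p = 0.0272 in limma) and with LPS + Beta-Ac (adjusted p = 0.0236), and both calls were lost without control 209 (adjusted p = 0.0815 and 0.0599). The call at 16 hours was also lost without 026 or 035 (0.057 and 0.0733), and that with LPS + Beta-Ac without 248 or 249 (0.115 and 0.0699). Without LPS 5d animal 240, MFAP5 also passed with LPS 5d (adjusted p = 0.0316) and at term (adjusted p = 0.0362). At these counts the fitted fold change of MFAP5 depends on the prior count added before the logarithm, and at 16 hours it was -2.03 with a prior count of 2 and -2.27 with 0.5.

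The cross-linking enzymes overlapped the preterm controls at 16 hours and fell by 5 days. LOX (ENSMMUG00000056626), lysyl oxidase, was 63.3, 52.2, 61.4 and 48.2 CPM in preterm controls 092, 101, 113 and 209, and 72, 40.2, 80.7 and 54.3 CPM in LPS 16h animals 026, 029, 035 and 038. It was 31.3, 34.3 and 26.7 CPM in LPS 5d animals 239, 240 and 242, and 30.5, 15.9 and 22.7 CPM in LPS + Beta-Ac animals 248, 249 and 255. The 16-hour range enclosed the controls, and both 5-day groups lay wholly below it. The term controls had 29.3 and 47.9 CPM. LOX fell with LPS + Beta-Ac (-1.33, SE 0.25, adjusted p = 0.0021 in limma) and with LPS 5d (-0.87, SE 0.25, adjusted p = 0.0308), and was higher at 16 hours than at 5 days (0.96, SE 0.25, adjusted p = 0.00778). The LPS 5d call was lost when any of 092, 101, 113, 239, 240 or 242 was left out, at adjusted p values of 0.0524 to 0.11. At 16 hours the difference was 0.09 (95% confidence interval -0.40 to 0.59), and it was negative with library totals in place of TMM (-0.11), and at term it was -0.58 (-1.19 to 0.03).

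LOXL1 (ENSMMUG00000003638), a lysyl oxidase-like enzyme with a preference for elastin, was 87, 83.2, 74.2 and 85.8 CPM in preterm controls 092, 101, 113 and 209, and 60.3, 76, 83.4 and 69.5 CPM in LPS 16h animals 026, 029, 035 and 038. It was 44.4, 39.2 and 39.4 CPM with LPS 5d, 44.8, 43.6 and 36.3 CPM with LPS + Beta-Ac, and 38.5 and 34.3 CPM at term. Every animal of the last 3 groups was below every preterm control and every LPS 16h animal. LOXL1 fell with LPS 5d (-1.01, SE 0.12, adjusted p = 0.000292 in limma), with LPS + Beta-Ac (-0.99, SE 0.12, adjusted p = 8.32e-05) and at term (-1.18, SE 0.14, adjusted p = 0.000961). At 16 hours it was lower by a difference that did not pass (-0.20, SE 0.11, adjusted p = 0.181) except with library totals in place of TMM (-0.40, adjusted p = 0.00553). It was higher at 16 hours than at 5 days after LPS (0.81, SE 0.12, adjusted p = 0.00011).

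The fibulins parted from each other. FBLN5 (ENSMMUG00000008447), fibulin-5, which brings tropoelastin to microfibrils and to cell-surface integrins, was 249.7, 222, 253 and 245 CPM in preterm controls 092, 101, 113 and 209, and 47.7, 81, 25.7 and 40.5 CPM in LPS 16h animals 026, 029, 035 and 038. Its mean at 16 hours was 20.1% of the preterm mean. At 5 days it was 205, 191 and 213 CPM with LPS alone and 169, 185 and 165 CPM with LPS + Beta-Ac, and at term 143 and 154 CPM. The 16-hour animals thus lay apart from all others, and the other treated and term animals lay between them and the preterm controls. FBLN5 fell at 16 hours (-2.43, SE 0.23, adjusted p = 1.12e-06 in limma) and was lower at 16 hours than at 5 days (-2.18, SE 0.25, adjusted p = 1.01e-05). The differences from preterm controls did not pass with LPS 5d (-0.26, adjusted p = 0.56), with LPS + Beta-Ac (-0.49, adjusted p = 0.207) or at term (-0.71, adjusted p = 0.184). Without LPS 16h animal 029 the last 2 did (adjusted p = 0.0483 and 0.04). They also did in limma when only the 2 compared groups were fitted (adjusted p = 0.00658 and 0.0417).

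EFEMP2 (ENSMMUG00000019012), fibulin-4, which links lysyl oxidase to tropoelastin, passed in no comparison. It was 126 to 134 CPM in the preterm controls, 107 to 176 CPM at 16 hours, 121 to 157 CPM at 5 days after LPS, 128 to 139 CPM with LPS + Beta-Ac, and 89.8 and 120.3 CPM at term. The intervals of its differences from preterm controls were -0.28 to 0.38 at 16 hours, -0.22 to 0.50 with LPS 5d, -0.32 to 0.40 with LPS + Beta-Ac and -0.73 to 0.09 at term.

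**Figure D2:**
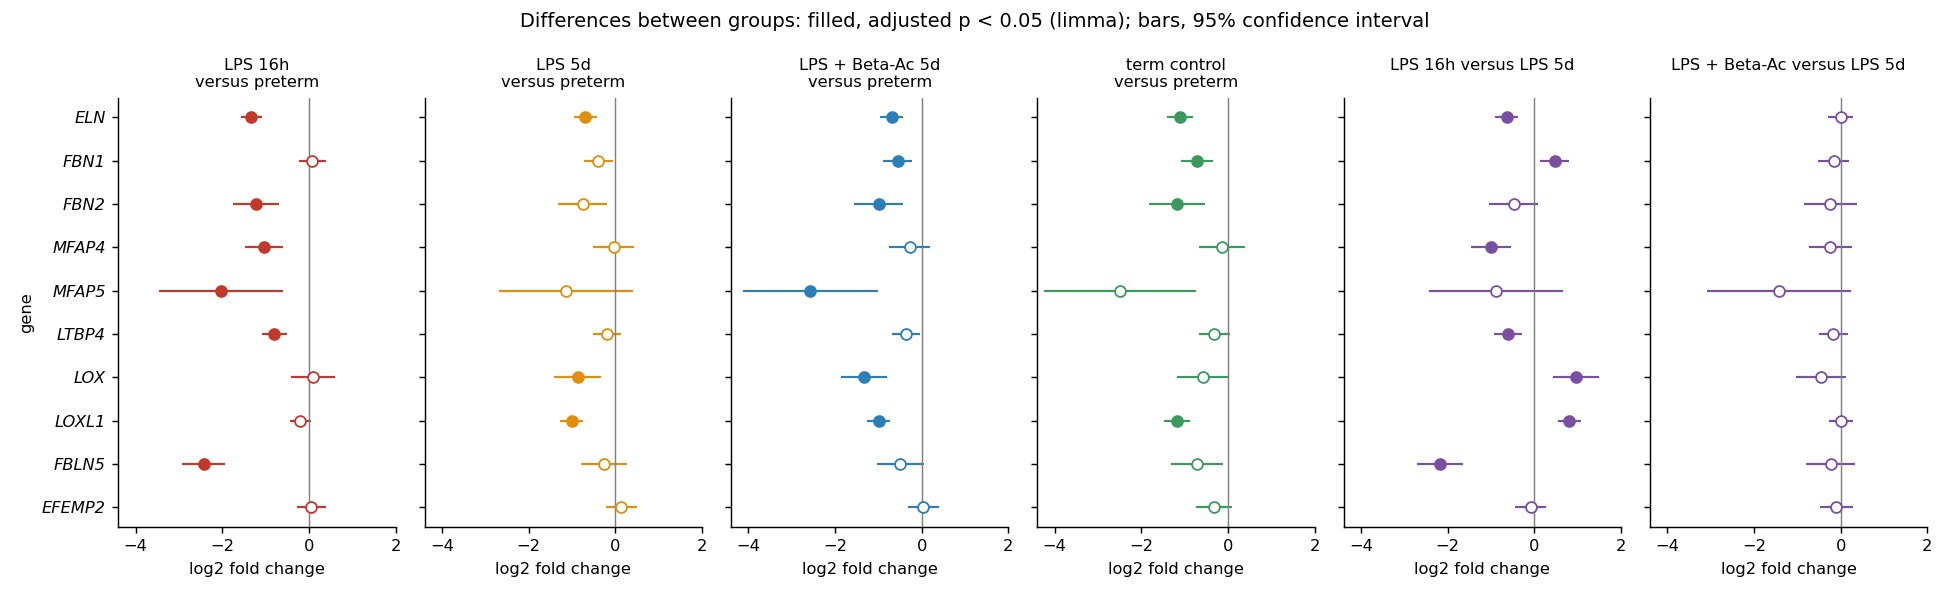
Log2 fold changes of the 10 genes (horizontal axes) in 6 comparisons, with 95% confidence intervals and filled points where the adjusted p was below 0.05. At 16 hours 6 of the 10 genes are filled, all lower, and against LPS 5d the 16-hour animals are lower for 4 genes and higher for 3.

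Counted together, 6 of the 10 genes fell 16 hours after LPS and none rose. Of the 19199 genes tested, 19.6% fell in the same comparison. With a fold of at least 2 as well, 5 of the 10 were called lower (ELN, FBN2, FBLN5, MFAP4 and MFAP5), beside 6.07% of all genes. The median log2 fold change of the 10 genes was -0.92, and that of all genes tested was -0.09. With library totals in place of TMM the median of all genes was -0.29, so part of any small 16-hour difference depends on the scaling. FBN1, LOX and EFEMP2 then turned from slightly positive to slightly negative (-0.13, -0.11 and -0.15), without passing.

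At 5 days after LPS 3 of the 10 fell (ELN, LOX and LOXL1), beside 9.23% of all genes, and 1 of them (LOXL1) had a fold of at least 2, beside 2.23%. With LPS + Beta-Ac 6 fell (ELN, FBN1, FBN2, LOX, LOXL1 and MFAP5), beside 10.2%, and 2 of them (LOX and MFAP5) had such a fold, beside 2.44%. The 3 calls of the combined exposure that LPS alone did not share were those of FBN1, FBN2 and MFAP5, each of which was lost in at least 2 fits that left out 1 animal. At term 4 fell (ELN, FBN1, FBN2 and LOXL1), beside 2.57%, and 3 of them (ELN, FBN2 and LOXL1) had such a fold, beside 0.953%. The median log2 fold changes of the 10 genes were -0.54, -0.62 and -0.71 in these comparisons, with all genes at -0.00, -0.01 and -0.01. The 4 comparisons share the 4 preterm controls and are not independent of one another.

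The 2 times after LPS were compared directly, without the shared controls. Of the 10 genes, 4 were lower at 16 hours than at 5 days (ELN, FBLN5, MFAP4 and LTBP4), beside 15.6% of all genes, and 2 of them (FBLN5 and MFAP4) by a fold of at least 2, beside 6.61%. A further 3 were higher at 16 hours (FBN1, LOX and LOXL1), beside 19.4% of all genes. ELN, FBLN5, MFAP4 and LTBP4 were therefore lower early, and the fibrillin FBN1 and both cross-linking enzymes were lower late. The FBN1 value of 0.47 (adjusted p = 0.0284 in limma) was lost with library totals (0.28, adjusted p = 0.198) and without 026, 035, 038, 239 or 240, at adjusted p values of 0.0619 to 0.103. The 16-hour animals and the 5-day animals were different fetuses, and the 16-hour libraries were the deeper ones.

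**Figure D3:**
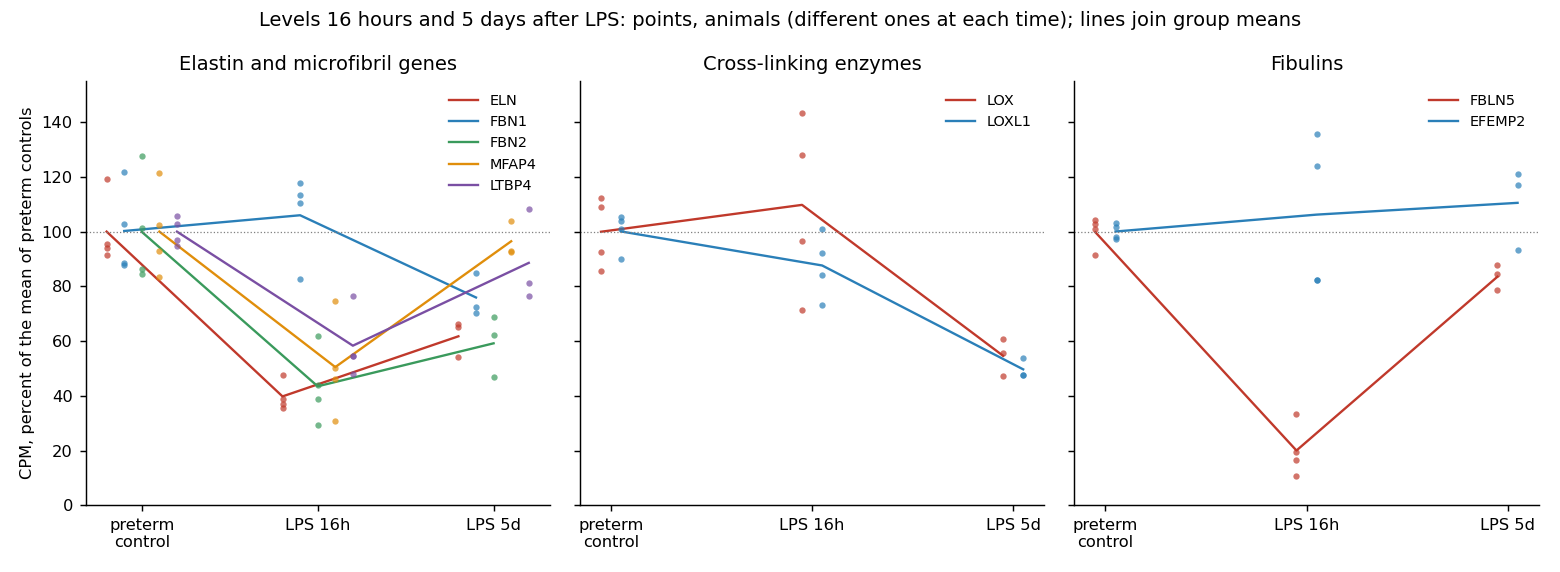
CPM of 9 genes as a percent of each gene's preterm control mean (vertical axis) in preterm controls, LPS 16h and LPS 5d animals, with 1 point per animal and lines joining group means of different animals. FBLN5 is at 20.1% at 16 hours and 83.7% at 5 days, and LOXL1 at 87.6% and then 49.6%.

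Adding Beta-Ac to LPS gave no call among the 10 genes against LPS alone in limma. None had an unadjusted p below 0.05 and limma-voom called none, and over all genes 0% were lower and 20 genes were higher. The differences were 0.00 for ELN (95% confidence interval -0.28 to 0.29), 0.02 for LOXL1 (-0.26 to 0.29), -0.46 for LOX (-1.04 to 0.11), -0.23 for FBLN5 (-0.80 to 0.34) and -0.24 for MFAP4 (-0.74 to 0.26). FBLN5 and MFAP4 were lower in all 3 LPS + Beta-Ac animals than in all 3 LPS 5d animals, and the groups overlapped for every other member. The share of all genes that part in this way was not counted, so no effect is read from it. The intervals are wide enough to hold a difference in either direction.

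The comparisons of the 5-day groups with term controls gave no call either. Against term, LPS 5d had ELN (0.41, 95% confidence interval 0.09 to 0.73) and EFEMP2 (0.46, 0.02 to 0.89) at an unadjusted p below 0.05, and LPS + Beta-Ac had ELN (0.42, 0.10 to 0.74) and LOX (-0.75, -1.40 to -0.11). None of these passed the adjustment in limma or with limma-voom, and of all genes 0.0469% and 0.255% were lower in the comparisons. ELN was higher in each of the 6 animals of the 5-day groups (1527 to 1861 CPM) than in both term controls (1235 and 1371 CPM). Only 2 term controls were sequenced.

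Ratios within an animal do not depend on the scaling of the library, and they are compared here between groups only, since CPM are not per length. LOX counts were 2.35%, 1.98%, 2.39% and 1.43% of ELN counts in preterm controls 092, 101, 113 and 209, and 6.88%, 3%, 7.35% and 5.43% in LPS 16h animals 026, 029, 035 and 038. At 5 days the ratio was 1.68% to 1.88% with LPS and 0.957% to 1.66% with LPS + Beta-Ac. The term controls had 2.14% and 3.88%. All LPS 16h animals were thus above all preterm and 5-day animals, but term control 201 was above LPS 16h animal 029. LOXL1 was 2.55% to 3.23% of ELN in preterm controls, 5.67% to 7.59% at 16 hours and 2.1% to 2.63% in the 6 animals at 5 days, with 2.81% and 2.78% at term.

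FBLN5 moved the opposite way relative to ELN. It was 7.31% to 9.85% of ELN in the preterm controls, 2.34% to 6.04% at 16 hours and 9.24% to 14% in the 5-day and term animals. FBN2 was 25.2% to 27.4% of FBN1 in the 4 preterm controls, a narrow range, and 8.94% to 13.7% at 16 hours. The FBN2 to FBN1 ratio was 14.4% to 24.7% at 5 days after LPS, 12% to 28.7% with LPS + Beta-Ac and 18.3% and 19.3% at term. Only the LPS + Beta-Ac group overlapped the preterm controls. LTBP4 relative to ELN was 22.6% to 31.6% in the preterm controls and 33% to 51.1% in the other 12 animals, without overlap. These ratios were not tested.

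**Figure D4:**
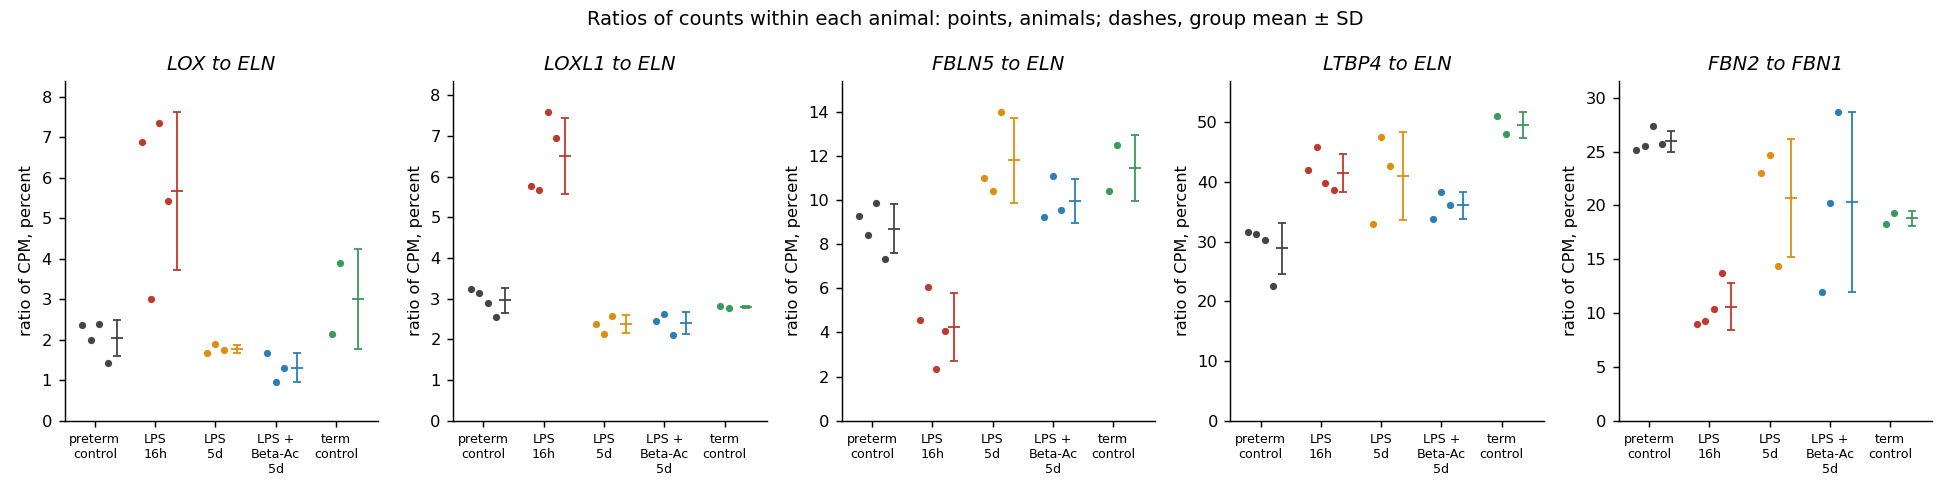
Ratio of the counts of 2 genes within each animal, in percent (vertical axes, each from 0), with 1 point per animal and the group mean with its SD. The LPS 16h animals lie above all preterm and 5-day animals for LOX to ELN (3% to 7.35%) and LOXL1 to ELN, and below them for FBLN5 to ELN and, but for 1 LPS + Beta-Ac animal, FBN2 to FBN1.

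Animals of a group also differed among themselves. Among the LPS 16h animals, 029 had the highest ELN, FBLN5, MFAP4, LTBP4 and EFEMP2 and the lowest FBN1, FBN2 and LOX. Animal 035 had the lowest FBLN5 and MFAP4 and the highest LOX and LOXL1. Over the 16 animals, FBLN5 and MFAP4 had the highest correlation among the pairs of the 9 genes other than MFAP5 (Pearson r = 0.93 of log2 CPM), and after subtraction of group means it was 0.835. LOX and FBN1 gave 0.786 and 0.595. ELN and LOXL1 gave 0.307 and 0.434. The 0.835 of FBLN5 and MFAP4 rests largely on LPS 16h animals 029 and 035. Their log2 deviations from the group mean were 0.85 and 0.64 in 029, and -0.80 and -0.65 in 035. All libraries share the group differences and their cell makeup, so these correlations are descriptions.

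The genes most like ELN over the 16 animals, among 10359 genes with a symbol and a mean of at least 10 CPM, were FGD1, CD248, BGN, HEYL and MFAP2. Their Pearson r with ELN was 0.939, 0.924, 0.921, 0.915 and 0.914, against a median of -0.0143 over the genes compared. Each was highest in the preterm controls and lowest in the LPS 16h animals by group mean, as ELN was. That shared order follows from choosing them by likeness to ELN in the same animals and is no separate result. BGN, the small matrix proteoglycan biglycan, averaged 453 CPM in the preterm controls, 174 CPM at 16 hours and 265 CPM at 5 days after LPS. MFAP2, a microfibril-associated protein, averaged 112, 34.7 and 77.5 CPM, and CD248, a surface protein of perivascular and stromal cells, 72.7, 21.4 and 31.3 CPM. Ranking by Spearman's rho kept 2 of the 5.

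Of 21 other elastic fibre and microfibril genes, 10 fell and 4 rose at 16 hours after LPS, when 19.6% of all genes fell and 18.7% rose. The share that rose was thus near that of all genes. LTBP2, a relative of LTBP4 that binds fibulin-5, fell from 446 ± 34.1 CPM (SD, n = 4) to 175 ± 21.1 CPM (n = 4, log2 fold change -1.35, adjusted p = 7.72e-07 in limma). EFEMP1, fibulin-3, fell from 359.7 ± 49.4 to 103 ± 38.6 CPM (-1.85, adjusted p = 1.37e-06), MFAP2 fell by 1.74 (adjusted p = 9.08e-06) and ADAMTSL2, a microfibril-binding protein, by 1.53 (adjusted p = 3.52e-05). EMILIN2, an elastin microfibril interface protein, rose from 18.1 ± 2.15 to 67.2 ± 16.1 CPM (1.87, adjusted p = 3.8e-07). Of these 5 genes with the smallest adjusted p, EMILIN2 alone was higher. The median of the list was -0.41, with all genes at -0.09.

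At 5 days after LPS 3 of the 21 fell and none rose, beside 9.23% and 5.49% of all genes. In limma 2 of the 21 were higher at an unadjusted p below 0.05, and limma-voom called none higher. With LPS + Beta-Ac 6 fell and 2 rose, beside 10.2% and 7.1% of all genes, and none of the changes in either 5-day group reached a fold of 2. When single animals were left out, the count of falls with LPS + Beta-Ac ranged from 3 (without 101, 113, 240, 248, 249 or 255) to 6, and that of rises from 0 (without 249) to 2, with 1 without 092, 101, 209, 248 or 255. At term 6 fell and 1 rose, beside 2.57% and 1.42%. LOXL2, a lysyl oxidase-like enzyme, fell at term from 156 ± 26.7 to 67.3 ± 19.6 CPM (n = 4 and 2, -1.22, adjusted p = 0.00496 in limma), and MFAP2 fell by 1.24 (adjusted p = 0.0152). The term count of falls ranged from 2 to 6 over fits that left out 1 animal, with 3 without 092 or 113 and 2 without 201, and the rise was kept only without 029, 035, 249 or 255.

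Of 15 proteases that can cleave elastin and their inhibitors, 7 rose and 3 fell at 16 hours, beside 18.7% and 19.6% of all genes. The share that fell was near that of all genes. TIMP1, a metalloproteinase inhibitor, rose from 65.8 ± 9.59 to 1384 ± 424 CPM (n = 4 and 4, log2 fold change 4.34, adjusted p = 6.38e-10 in limma). The inhibitors of neutrophil elastase rose as well, PI3 from 5.38 ± 2.18 to 199 ± 94.2 CPM (5.17, adjusted p = 1.97e-07) and SLPI from 3.94 ± 2.72 to 61.6 ± 17.5 CPM (4.08, adjusted p = 3.56e-07). CTSS, the elastolytic cathepsin S of myeloid cells, rose from 29.9 ± 5.05 to 117 ± 24.1 CPM (1.96, adjusted p = 1.72e-07). TIMP3, a matrix-bound inhibitor, fell from 1416 ± 50.1 to 534 ± 66.9 CPM (-1.42, adjusted p = 3.72e-07). The proteases MMP7 (matrilysin, 4.20, adjusted p = 6.14e-07) and MMP9 (a gelatinase that also cleaves elastin, 8.73, adjusted p = 3.44e-06) rose at 16 hours too, and are named after their values were seen. MMP7 was higher at 16 hours than at 5 days (2.03, adjusted p = 0.00103), and for MMP9 that difference did not pass (2.34, adjusted p = 0.0608).

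At 5 days after LPS 3 of the 15 rose and 2 fell, beside 5.49% and 9.23% of all genes. MMP9 was 0.109 to 0.828 CPM in the preterm controls and 28.5 to 72.7 CPM with LPS (6.39, adjusted p = 0.000758 in limma), and MMP7 rose from 78.4 ± 5.13 to 361 ± 82.4 CPM (2.18, adjusted p = 0.00235). With LPS + Beta-Ac 5 rose and 2 fell, beside 7.1% and 10.2%. MMP9 was then 106 to 308 CPM (8.51, adjusted p = 6.17e-05), MMP7 288 to 775 CPM (2.54, adjusted p = 0.000616), CTSS 88 to 115 CPM (1.78, adjusted p = 1.24e-05), CTSL, cathepsin L, 140.4 to 297 CPM (1.63, adjusted p = 0.00744) and CTSG, the neutrophil protease cathepsin G, 1.08 to 3.91 CPM against 0.305 to 0.436 CPM (2.18, adjusted p = 0.006). At term 3 rose and 1 fell, beside 1.42% and 2.57%, and MMP9 was at 3.2 and 105 CPM (5.29, adjusted p = 0.0154), but without term control 200 no gene of the list rose, and without 201 none fell.

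Marker genes of the cells that make elastic fibres also differed between groups. The summed level of 7 smooth muscle and myofibroblast genes was 2229 to 2745 CPM in the preterm controls and 1816 to 2176 CPM at 16 hours, and it was 1340.3 to 1492 CPM with LPS 5d, 1286 to 1667 CPM with LPS + Beta-Ac and 1124 and 1589 CPM at term. Against preterm controls 4 of the 7 fell and 2 rose at 16 hours, and 4 fell in each of the other 3 groups, where 19.6%, 9.23%, 10.2% and 2.57% of all genes fell. The summed level of 8 interstitial fibroblast genes was 12242 to 20545 CPM in the preterm controls, 8566 to 12021 CPM at 16 hours, 7886 to 13957 CPM with LPS 5d, 7543 to 10534 CPM with LPS + Beta-Ac and 7579.7 and 7727 CPM at term. Of these 8 genes 5 fell at 16 hours, 0 with LPS 5d (4 at an unadjusted p below 0.05 in limma, 0 with limma-voom), 3 with LPS + Beta-Ac and 3 at term, and the sums of the LPS 5d animals overlapped those of the preterm controls. The 4 adventitial fibroblast genes summed to 978 to 1238 CPM in the preterm controls and 485 to 586 CPM at 16 hours. At 16 hours 3 of them fell, and 1 fell in each of the other 3 groups. Most of this sum was CD34, at 794 to 1028 CPM in the preterm controls and 436 to 521 CPM at 16 hours. The lowest marker of these 3 lists was SFRP2, at 1.45 to 24.2 CPM. The part of cell makeup in the results was not tested.

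Set against these sums, ELN per unit of the smooth muscle list averaged 46.9% ± 4.93 (SD, n = 4) of its preterm value at 16 hours and 105% ± 7.78 (n = 3) at 5 days after LPS. FBLN5 per unit of the same list averaged 23.6% ± 10.5 at 16 hours and 143% ± 12.2 at 5 days, and LOXL1 103% ± 9.07 and 85.1% ± 2.23. Not all members had the preterm ratio at 5 days after LPS. EFEMP2 then averaged 189% ± 18.8, MFAP4 166% ± 3.12, LTBP4 153% ± 32.8 and FBN1 129% ± 19.5 per unit of this list. FBN2 averaged 100.1% ± 17.6 and LOX 93.8% ± 11. Per unit of the fibroblast list, ELN averaged 60.8% ± 11.2 of its preterm value at 16 hours and 94.6% ± 18.2 at 5 days. Per unit of the smooth muscle list, ELN was 41.1% to 52.4% at 16 hours and 83.5% to 126% in the preterm controls, without overlap. Per unit of the fibroblast list the 2 groups overlapped, at 49.6% to 73.1% and 71.3% to 123%. At 5 days after LPS, ELN had the preterm ratio to both sums within the spread of the animals. The levels per unit of a list were not tested. The sums are RNA levels of the listed genes and not numbers of cells. Most of the fibroblast sum was matrix RNA of COL1A1, COL1A2 and COL3A1. In preterm controls these were 2805 to 5800.2, 2447 to 4598 and 4564 to 7541 CPM. At 16 hours the smooth muscle sum joined 4 genes that fell and 2 that rose. At term ELN averaged 83.5% ± 14.2 of its preterm value per unit of the smooth muscle list and 97% ± 5.84 per unit of the fibroblast list.

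**Figure D5:**
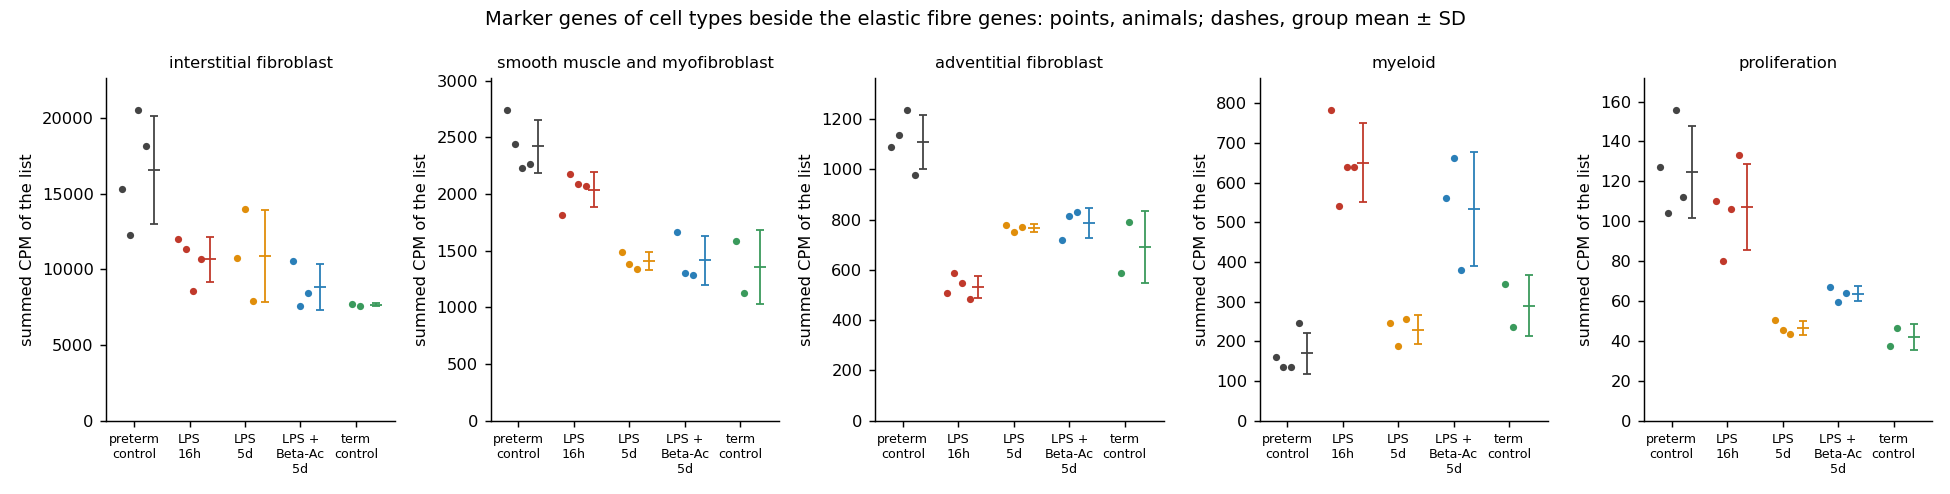
Summed CPM of the marker genes of 5 lists (vertical axes, each from 0) in the 5 groups, with 1 point per animal and the group mean with its SD. The smooth muscle list is lowest at 5 days and at term, whereas the adventitial list is lowest and the myeloid list highest at 16 hours. CD34 makes up most of the adventitial sum, and COL1A1, COL1A2 and COL3A1 most of the interstitial fibroblast sum.

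Marker genes of other cell types were summed as well, and the sums were not tested. The 8 myeloid genes summed to 135 to 246 CPM in the preterm controls, 540.1 to 784 CPM at 16 hours, 187 to 255 CPM with LPS 5d, 379 to 662 CPM with LPS + Beta-Ac and 235 and 345 CPM at term. Gene by gene, 6 of the 8 rose at 16 hours, 5 with LPS 5d, 7 with LPS + Beta-Ac and 4 at term, and none passed as lower. Of all genes 18.7%, 5.49%, 7.1% and 1.42% rose. LYZ went the other way with LPS 5d, at 24.5 to 31.9 CPM against 36.1 to 148 CPM in the preterm controls, which lowers that sum. Animal 029, with the highest ELN and FBLN5 of the LPS 16h animals, had the lowest myeloid sum of that group. Animal 026 had the highest myeloid sum (784 CPM), with FBLN5 at 47.7 CPM. Animals 035 and 038 had myeloid sums of 639.8 and 638 CPM, with FBLN5 at 25.7 and 40.5 CPM. A relation between the myeloid sum and these genes was not tested. The 6 proliferation genes summed to 104 to 156 CPM in the preterm controls, 80.1 to 133 CPM at 16 hours and 43.7 to 67.2 CPM in the 5-day groups. The 7 endothelial genes averaged 82.5% of the preterm mean at 16 hours, 77.6% with LPS 5d, 84.1% with LPS + Beta-Ac and 66.3% at term, and the 4 erythroid genes 79%, 54.5%, 106% and 47.7%. The 5 cartilage genes averaged 37.9% to 45.3% of the preterm mean and the 4 mesothelial genes 51.5% to 80.9% in the other groups. The 5 epithelial genes averaged 148% to 212%, with most of the sum in SFTPB and SFTPC. At 16 hours 1 of the 5 fell and 2 rose, beside 19.6% and 18.7% of all genes. NKX2-1 was then 47.2 to 77.6 CPM and AGER 416 to 579 CPM. In the preterm controls they were 76.6 to 114 and 511 to 1117 CPM. Gestational age at delivery also differed, and with it as a covariate over the 14 animals delivered preterm, chosen after seeing the data for the comparisons with preterm controls, FBN2 (-0.87, adjusted p = 0.0692) and MFAP5 (adjusted p = 0.286) no longer passed at 16 hours and 3 in place of 6 genes passed with LPS + Beta-Ac.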

How the data were processed

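The left lung was frozen, and RNA was sequenced by the authors from poly(A)-selected libraries as 75 bp paired-end reads. Per the labels and the methods, kallisto assigned reads to the rhesus build Mmul_10, tximport summed them per gene, and the authors used DESeq2 for their own comparisons. Tool versions and the annotation release were not given in the sources read. The deposited values are raw counts in whole numbers, 1 row per Ensembl gene. Their unit was recorded as other, since the unit check could not read the table's layout, so count models were not run.

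In R 4.3.3, TMM factors (30% trim of log ratios, 5% of mean values) were applied, log2 CPM were taken with 2 as the prior count, and limma 3.58.1 (trend, robust) was run with 1 mean per group over 16 animals. A gene was tested if it reached 0.371 CPM in 2 or more animals and summed to 15 counts or more. Confidence intervals are those of the fit. The p-values are two-sided and set each group difference against the spread between animals, which is estimated over all 5 groups. Group, dose and time came from the labels, which name no batch or sex, nor shared dams. Depth is 20.2 to 48.1 M counts, and precision is set by the few animals per group. Pairs of animals in a group differed by 31.1 to 166 in chi-square per degree of freedom, so none was a copy of another.

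The steps were tested on simulated data. For LPS 5d against preterm controls, over 19199 genes, 55% of genes with a log2 change of 1 and 89% of those with a change of 2 were recovered. In the same run 12 unchanged genes were called. The changes were placed only in genes with higher mean counts, so the recovery does not cover genes as low as MFAP5. The members and lists were chosen with earlier results of these data known. Named in the text are all members, the called genes of the 2 further lists (at most 5 per list and comparison, by smallest adjusted p) and the 5 genes most like ELN. The LOXL1 to ELN ratio and the levels per unit of a marker list were added after seeing the data, as were the thinned counts and the gestational age fits against preterm controls. Other alternatives were limma-voom, other size factors, library totals, a prior count of 0.5, a filter of 1 count, the compared groups alone, and leaving out animals. FBLN7, CTSK, A2M, HBA2, HBB, HBG1 and HBG2 matched no row by symbol and were not used here. Figures were drawn with matplotlib 3.10.9 in Python 3.11.15.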

Additional observations from a re-analysis of the deposited data

Results flagged for a closer look

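The difference between the LPS animals delivered at 16 hours and those delivered at 5 days passed limma's test for 7 of the 10 genes, as a log2 fold change of 16 hours against 5 days. It was -2.18 for FBLN5 (adjusted p = 1.01e-05), -1.003 for MFAP4 (adjusted p = 0.00232), -0.64 for ELN (adjusted p = 0.00106) and -0.61 for LTBP4 (adjusted p = 0.00484). It was 0.96 for LOX (adjusted p = 0.00778), 0.81 for LOXL1 (adjusted p = 0.00011) and 0.47 for FBN1 (adjusted p = 0.0284). The FBN1 difference was 0.28 (adjusted p = 0.198) with library totals in place of TMM.

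Preterm control 209 lay far above the other preterm controls for MFAP5, at 1.26 on the log2 CPM scale against -0.23 to -0.01. The gap to its nearest neighbour was 0.855 of the range of the group, above Dixon's 95% limit for 4 animals. Of the 20 groups of 4 values examined this was the only one past the limit, and chance alone passes it in about 1 of 20.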

How the results depend on the processing

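Of 80 comparisons of an elastic fibre gene, 26 passed. Under 25 alternatives, 17 of them kept the call in each alternative run and 9 lost it in at least 1 (FBN2 and MFAP5 at 16 hours, LOX with LPS 5d, FBN1, FBN2 and MFAP5 with LPS + Beta-Ac, FBN1 and FBN2 at term, and FBN1 between 16 hours and 5 days), and none of the 26 turned its direction. Of 1970 values, 1877 kept both direction and side of the threshold, 53 fell short of it, 11 came to pass it and 29 turned direction. The cause was not tested. No paired analysis was possible because animal numbers do not recur between groups. Count models were planned only if the table was accepted as counts and were not run. MFAP5 rests on 1 to 64 counts per library, and with counts thinned to the smallest library, chosen after seeing the data, the FBN2 call at term was lost (adjusted p = 0.0518). Groups held 2 to 4 animals.

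Counts of genes past the test moved as follows. A fold of at least 2 left 1 gene with LPS 5d, 2 with LPS + Beta-Ac and 2 between 16 hours and 5 days. With gestational age as a covariate, chosen after seeing the data, 3 genes passed with LPS + Beta-Ac. At term 2 passed with library totals and 2 without animals 209 and 200. When 1 animal was left out, 3 (without 249) to 8 (without 029) passed with LPS + Beta-Ac and 2 to 5 at term. Beside the 20 genes called between LPS + Beta-Ac and LPS 5d over all genes, limma-voom called 3, the 2 groups alone gave 0, and leaving out 1 animal gave 2 (without 240) to 58 (without 255). Spearman's rho shared 2 of the 5 genes most like ELN.

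These log2 fold changes, none of which passed, turned direction. With library totals at 16 hours against preterm controls they were -0.126 for FBN1, -0.112 for LOX and -0.155 for EFEMP2. Without animals 209 and 200, LPS + Beta-Ac against term gave 0.065 for MFAP4, 0.563 for MFAP5 and 0.079 for LTBP4, and thinned counts gave 0.221 for MFAP5. When 1 animal was left out, the ranges at 16 hours against preterm controls were -0.051 to 0.311 for LOX and -0.052 to 0.161 for EFEMP2. MFAP4 ranged from -0.121 to 0.058 with LPS 5d and from -0.341 to 0.077 at term, both against preterm controls. LPS + Beta-Ac against LPS 5d ranged from -0.088 to 0.055 for ELN and from -0.040 to 0.110 for LOXL1. Between 16 hours and 5 days EFEMP2 ranged from -0.217 to 0.024 and MFAP5 from -1.552 to 0.226. LPS 5d against term ranged from -0.646 to 0.060 for LOX, from -0.117 to 0.301 for MFAP4 and from -0.026 to 0.247 for LTBP4. LPS + Beta-Ac against term ranged from -0.126 to 0.415 for FBN2, from -0.353 to 0.065 for MFAP4, from -0.718 to 0.562 for MFAP5 and from -0.161 to 0.079 for LTBP4.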
